A study of Homo sapiens with 2 samples.

Results

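TSPAN8 and 9 other tetraspanins (TSPAN1, TSPAN3, TSPAN13, TSPAN14, CD9, CD63, CD81, CD82 and CD151) were examined in RNAseq of breast cancer cells. These 10 genes are part of a human family of 33, all of which had a value, among 23033 genes with a value in the series. TSPAN8 was chosen by its ratio between the libraries, as the protein-coding gene with the highest log2 ratio of FZR1 ko to control after adding 1 FPKM to each value, so its difference is given here only as a description. The other 9 were chosen as relatives of TSPAN8 by gene family. The 2 libraries came from cells with the label T-47D, an established line of luminal breast cancer. One was labelled WT (control) and the other FZR1 ko, in which the gene for the anaphase-promoting complex activator FZR1 (CDH1) was targeted by CRISPR/Cas9. Both were treated with cisplatin, a drug that crosslinks DNA, at 2 µg/mL, and untreated cells were not analysed here. The FZR1 ko line was made with a lentiviral guide and cloned from single cells, and how long the drug acted before RNA was taken is not given in the sources used here. With 1 knockout line and 1 library per condition, the effect of FZR1, the history of the clone and the variation between cultures cannot be told apart. There were no replicates, so no value below has an error and no test was made.

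Tetraspanins are small membrane proteins that cross the membrane 4 times and carry a large extracellular loop. They bind each other and partner proteins, such as integrins and membrane proteases, in clusters called tetraspanin-enriched microdomains. CD9, CD63 and CD81 are abundant on exosomes and serve as their usual markers. TSPAN8 is a tetraspanin of epithelia that is high in several carcinomas, where it has been linked to motility and metastasis.

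TSPAN8 (Entrez gene 7103) is read from the minus strand at chr12:71125096-71157999 (hg38). Its main GENCODE transcript has 9 exons and 1131 bases, of which 711 are coding (237 codons). The 10 genes have 6 to 10 exons and coding lengths of 612 to 810 bases. They are spread over 6 chromosomes. CD9 and CD63 share chromosome 12 with TSPAN8, and CD81, CD82 and CD151 lie on chromosome 11.

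The sequence upstream of the gene start is shown for TSPAN8, TSPAN1 and CD63, as the gene with the largest difference, the next of the 10 in order and the gene with the highest level. Each is 250 bases from RefSeq (GRCh38.p14), 5′ to 3′ on the strand of the gene, ending at the base before the start of the main transcript. They are chr12:71158000-71158249 for TSPAN8 (minus strand), chr1:46174837-46175086 for TSPAN1 (plus strand) and chr12:55729010-55729259 for CD63 (minus strand). Capitals mark matches on either strand to GGGCGG (GC box) or TGANTCA (AP-1 element). No such matches overlap. The letters CCAAT and, for the TATA box, TATAAA were searched as well on both strands, and neither motif is in these 3 windows.
TSPAN8: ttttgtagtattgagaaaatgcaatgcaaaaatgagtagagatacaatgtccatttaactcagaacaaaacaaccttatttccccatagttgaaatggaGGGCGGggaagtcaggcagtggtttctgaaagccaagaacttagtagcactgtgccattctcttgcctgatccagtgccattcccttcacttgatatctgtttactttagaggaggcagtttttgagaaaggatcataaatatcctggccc
TSPAN1: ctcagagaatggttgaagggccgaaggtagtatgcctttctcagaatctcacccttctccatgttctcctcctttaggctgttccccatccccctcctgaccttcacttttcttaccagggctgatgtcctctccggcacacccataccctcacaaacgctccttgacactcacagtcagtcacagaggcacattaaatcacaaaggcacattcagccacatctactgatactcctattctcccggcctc
CD63: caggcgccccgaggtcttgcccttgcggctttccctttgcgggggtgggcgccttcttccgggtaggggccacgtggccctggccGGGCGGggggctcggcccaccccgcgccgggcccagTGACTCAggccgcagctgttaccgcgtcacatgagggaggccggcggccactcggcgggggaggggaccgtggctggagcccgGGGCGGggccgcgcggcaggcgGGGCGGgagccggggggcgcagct

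The TSPAN8 window is the poorest in G and C of the listed genes found in the table. Such a window was found for 7 of the 10 genes (TSPAN8, TSPAN1, TSPAN13, TSPAN14, CD9, CD63 and CD82). It has 40.8% G and C and 1 CpG, and TSPAN1 follows with 51.2% and 4 CpG. CD63 has 79.2% and 30 CpG, and the other 4 run from 70.0% in TSPAN13 to 88.0% in TSPAN14. The median of all 35116 windows in the table is 58.0%, and 14.1% of them have a lower share than TSPAN8. A GC box match stands in 6 of the 7 windows, all but that of TSPAN1, and in 42.6% of all windows. An AP-1 match stands in that of CD63 alone of the 7, and in 6.57% of all. A CCAAT match stands in that of TSPAN13 alone and in 32.0% of all. A TATAAA match stands in 0 of the 7 and in 10.7% of all. The table can hold several starts of a gene, such as 2 for TSPAN8 and 8 for CD63. Each listed gene is shown by 1 window, at its main start, while the shares of all windows count every start. The 2 kinds of share are thus not strictly alike. Such a match is a run of letters only, and binding there was not measured.

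The depth and the label of the cells bear on every value. The values are FPKM, fragments per kilobase of transcript, scaled to the mapped fragments of each library, so levels can be compared between genes. They hold no counts. Among 121 olfactory and taste receptor genes, which breast cells are not known to use, 29 were above 0 in control and 25 in FZR1 ko. The value met most often among these was 0.06 FPKM in both libraries (6 genes in control, 8 in FZR1 ko), which may be about 1 read for genes with a median coding length of 936 bases. Values near 0.06 FPKM in genes of that size therefore rest on very few reads. FZR1 had 12.28 FPKM (control) and 10.10 FPKM (FZR1 ko), and small insertions or deletions can leave an mRNA in place, so its level does not check the label. Which column is which library was read from the column names alone, and every direction given here rests on that. Of 15 luminal breast markers with a value, 7 were under 1 FPKM in each library, among them ESR1, GATA3, CDH1 (E-cadherin) and KRT19. PGR was at 0.01 FPKM in the control library and listed at 0 in the other. The sum over the 15 was 1504 FPKM for control and 1847 FPKM for FZR1 ko, of which the keratins KRT8 and KRT18 held most. Of the 8 kept (at least 1 FPKM in a library), 5 had the higher FPKM in FZR1 ko and 3 in control. EPCAM (log2 ratio 1.35 with 1 FPKM added to each value) was the 1 at least 2-fold higher, and 0 were at least 2-fold lower. Over all genes kept 6.78% were higher and 6.72% lower. ESR1 and PGR, hormone receptors that mark luminal cells, were thus close to absent in both libraries, which goes against the label T-47D. Not all of the luminal markers were low. XBP1 had 93.38 FPKM (control) and 72.57 FPKM (FZR1 ko), TFF1 9.80 and 7.52 FPKM, and ERBB3 7.14 and 9.07 FPKM. FOXA1 had 5.07 and 4.65 FPKM, and AGR2 had 1.34 and 1.55 FPKM. VIM, a mesenchymal marker, had 314.55 and 294.79 FPKM. The 14 mesenchymal and basal markers together had 473 FPKM (control) and 452 FPKM (FZR1 ko), and of the 10 kept 5 had the higher FPKM in each library. Of these, 2 (CDH2 and AXL) were at least 2-fold higher in FZR1 ko and 0 at least 2-fold lower, beside 6.78% and 6.72% of all genes kept, while KRT17 had 102.78 and 55.81 FPKM (log2 ratio -0.87 with 1 FPKM added to each value). The 10 leukocyte markers had 55.9 and 68.0 FPKM, with CD3E and MS4A1 listed at 0 in both. Their part in the difference of TSPAN8 was not tested. In bulk RNA, fewer cells of a type and less RNA per cell cannot be told apart.

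Levels in the family spanned several orders of magnitude. CD63, a protein of late endosomes, lysosomes and exosomes, was the highest of the 33 in both libraries, with 587.55 FPKM (control) and 589.84 FPKM (FZR1 ko). It alone held 52.6% of the summed FPKM of the family in control and 50.5% in FZR1 ko. CD151, a partner of laminin-binding integrins, came next with 153.60 and 168.47 FPKM. After it came CD81, which binds claudin-1, with 108.31 and 99.02 FPKM. CD9, which binds the precursor of heparin-binding EGF, had 47.19 FPKM (control) and 45.97 FPKM (FZR1 ko). TSPAN13, a less studied member, had 45.11 and 37.00 FPKM. The first 6 places in the family, TSPAN4 (74.27 and 92.17 FPKM) among them, were held by the same 6 genes in the same order in both libraries. Without replicates it cannot be said which neighbours in this order differ beyond their spread.

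**Figure D1:**
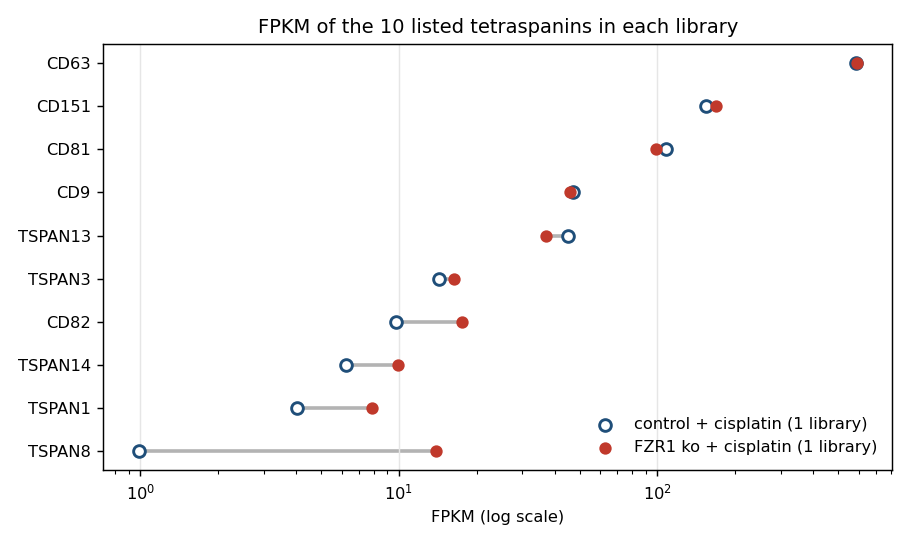
FPKM of the 10 tetraspanins on a log axis, with an open circle for the control library and a filled circle for the FZR1 ko library, 1 library each and no error bars. The circles nearly coincide for CD63 (587.55 and 589.84), while those of TSPAN8 lie at 0.99 and 13.97.

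TSPAN8 had 0.99 FPKM (control) and 13.97 FPKM (FZR1 ko). The ratio of the deposited values was 14.1, and the log2 ratio after adding 1 FPKM to each value, used from here on with FZR1 ko over control, was 2.91. This scale understates the change of low genes, and with 0.1 or 5 FPKM added instead the log2 ratio was 3.69 or 1.66. The control value was 16.5 times the most frequent value of the receptor genes and the FZR1 ko value 233 times. The highest receptor gene had 4.39 FPKM (control) and 1.20 FPKM (FZR1 ko), so the control value of TSPAN8 lay within the range of the receptor genes and its FZR1 ko value above it. TSPAN8 was in the 20th place of the 33 tetraspanins in control and in the 11th in FZR1 ko. Its share of the summed FPKM of the family was 0.0886% in control and 1.20% in FZR1 ko. A gene was kept if either library reached 1 FPKM, and of the 13554 genes kept 6 had a higher log2 ratio. The next protein-coding gene was EFEMP1, an extracellular matrix protein, with 1.88 and 17.69 FPKM (2.70). The place of TSPAN8 depends on this scale, since GRB10 (0.07 and 5.52 FPKM) and CLGN (0.09 and 5.54 FPKM) had higher ratios of the deposited values.

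The other 9 genes all differed by less than 2-fold. TSPAN1, a tetraspanin of secretory epithelia, had 4.02 FPKM (control) and 7.89 FPKM (FZR1 ko), a log2 ratio of 0.82. CD82 (KAI1), known as a suppressor of metastasis, had 9.72 and 17.61 FPKM (0.80). TSPAN14, which escorts the protease ADAM10 to the cell surface, had 6.22 and 9.91 FPKM (0.60). These 3 were the lowest of the 9 in control, and all were higher in FZR1 ko. TSPAN3 had 14.27 and 16.28 FPKM (0.18), and the log2 ratio of CD151 was 0.13. CD63 was close to 0 at 0.0056, and CD9 (-0.04), CD81 (-0.13) and TSPAN13 (-0.28) were below 0. The sign of CD9 turns when the libraries are scaled to the same upper quartile, to 0.016. Exons of TSPAN3, CD81 and CD82 overlap those of antisense transcripts by 264, 30 and 125 bases, and reads from the overlaps could not be told apart without strand. The last 6 genes were thus nearly level between the libraries, against a median absolute log2 ratio of 0.42 over all genes kept.

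Of the 10 genes, 1 was at least 2-fold different, and it is TSPAN8, which was chosen for that. Over all genes kept 13.5% were, 6.78% higher and 6.72% lower in FZR1 ko. Of the 9 others 0 were. All of these but TSPAN1 and TSPAN14 reached 10 FPKM in a library, and of the 7259 genes that did so 11.5% were at least 2-fold different. With so few genes the count says little. The median log2 ratio was 0.16 over the 10 and 0.13 over the 9, against -0.0048 over all genes kept. Of the 10, 7 had the higher FPKM in FZR1 ko and 3 in control. TSPAN8, chosen for being higher, is among the 7, and without it the counts are 6 and 3. Over all genes kept 50.3% had the higher FPKM in control. The filter on low values removed none of the 10, but TSPAN8 passed it only through the FZR1 ko library. The summed FPKM of the 10 was 977 in control and 1006 in FZR1 ko.

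**Figure D2:**
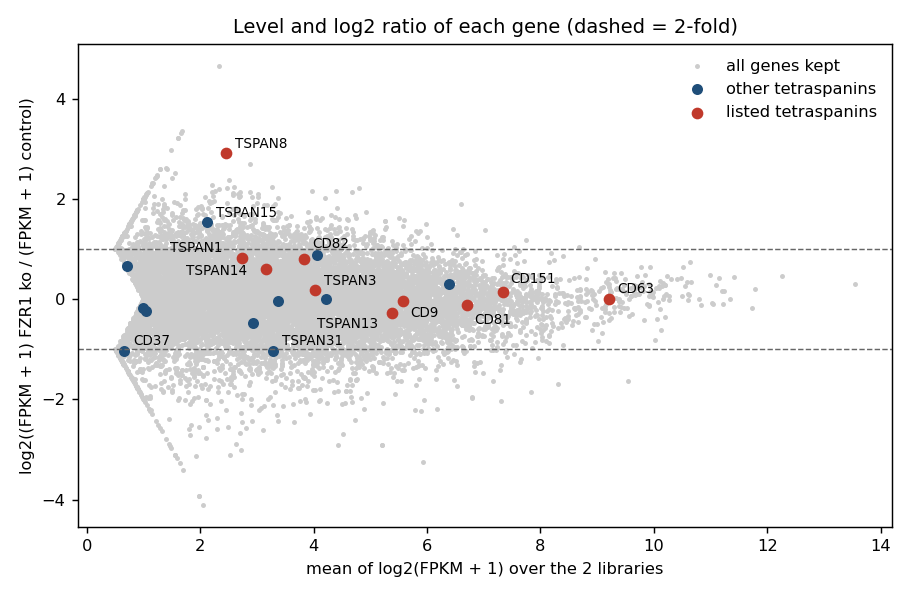
Log2 ratio of each gene (vertical axis) against the mean of its log2(FPKM + 1) over both libraries (horizontal axis), with all 13554 genes kept in grey, the 10 listed tetraspanins in red and the other tetraspanins in blue. The dashed lines mark a 2-fold difference, and of the red points only TSPAN8, at 2.91, lies outside them, while CD63 lies at the far right near 0.

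The remaining 23 tetraspanins were mostly low. Of these, 11 were kept, 12 were under 1 FPKM in both libraries, and 4 of the 12 (TSPAN5, TSPAN7, TSPAN16 and TSPAN32) were listed at 0 in both. Of the 11, 1 was at least 2-fold higher and 2 were at least 2-fold lower in FZR1 ko, together 3 of 11, beside 13.5% of all genes kept, and the difference was not tested. TSPAN15, another carrier of ADAM10, had 1.56 FPKM (control) and 6.43 FPKM (FZR1 ko) (log2 ratio 1.54), the log2 ratio next to that of TSPAN8 in the family. TSPAN31 had 12.90 and 5.80 FPKM (-1.03). Its exons overlap those of CDK4 on the opposite strand by 1078 bases, and CDK4 had 151.59 and 135.40 FPKM. Whether the reads kept their strand is not given in the sources used here, so the value of TSPAN31 is uncertain, and scaled to the same upper quartile it is less than 2-fold different. CD37, a tetraspanin of leukocytes, had 1.24 and 0.10 FPKM (-1.03). It was kept through the control library alone, and its FZR1 ko value is near the most frequent value of the receptor genes. The median log2 ratio of the 11 was -0.04. It was 0.0056 over all 21 tetraspanins kept, of which 11 had the higher FPKM in FZR1 ko and 10 in control.

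**Figure D3:**
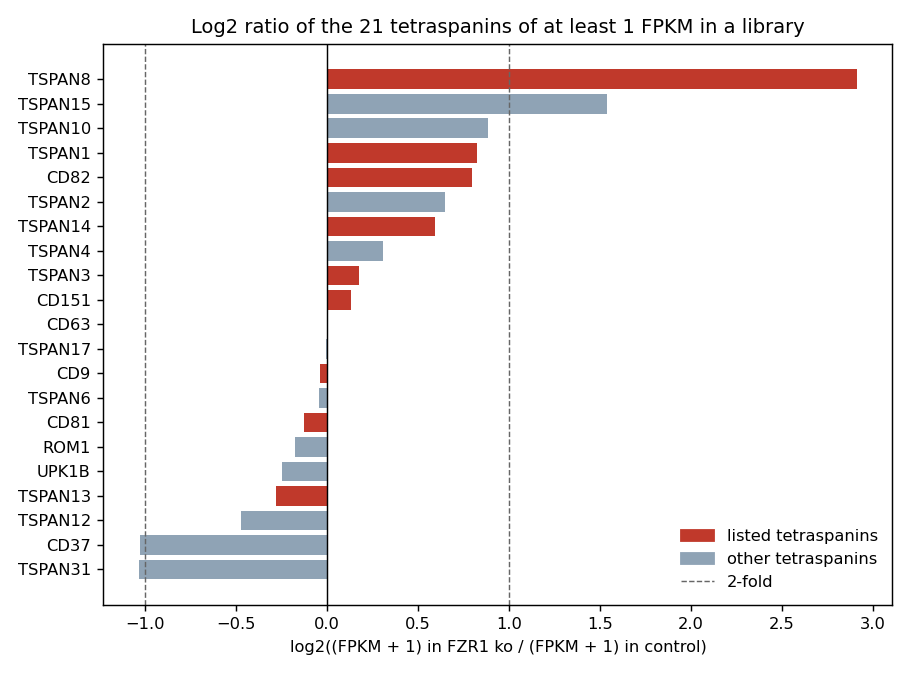
Bars give the log2 ratio of each of the 21 tetraspanins of at least 1 FPKM in a library, in red for the listed genes and in blue-grey for the others, with dashed lines at 2-fold. TSPAN8 (2.91) and TSPAN15 (1.54) pass the line on the right and TSPAN31 and CD37 (both -1.03) reach that on the left, and the bars of CD63 and TSPAN17 are too short to see.

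The family can also be read by its subgroup named TspanC8, whose 6 members carry 8 cysteines in the large loop and bind ADAM10, the protease that sheds Notch and cadherins. TSPAN15 (1.54), TSPAN10 (0.88, from 11.29 FPKM (control) to 21.67 FPKM (FZR1 ko)) and TSPAN14 (0.60) had positive log2 ratios. TSPAN17 was level at 17.57 and 17.53 FPKM. TSPAN33 had 0.65 and 0.81 FPKM, and TSPAN5 was listed at 0. The 4 kept had a median of 0.74, beside -0.0048 over all genes kept, and 1 of the 4 was at least 2-fold different, beside 13.5% of all genes kept. This subgroup was not one of the planned lists, and it holds TSPAN15, which was named after its value was seen. With 4 genes the median and the count say little, and neither was tested. ADAM10 itself had 6.75 and 9.16 FPKM (0.39), and its relative ADAM17 had 3.73 and 6.66 FPKM (0.70).

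Of 25 genes for proteins known to bind or modify tetraspanins 23 were kept, of which 4 were at least 2-fold higher and 3 at least 2-fold lower in FZR1 ko. These 7 are 30.4% of the 23, beside 13.5% of all genes kept, and the difference was not tested. EPCAM, an epithelial adhesion molecule found in complexes with TSPAN8 and claudin-7, had 3.90 FPKM (control) and 11.48 FPKM (FZR1 ko) (log2 ratio 1.35). EGFR, a growth factor receptor restrained by CD82, had 7.73 and 22.16 FPKM (1.41), and MET, the receptor of hepatocyte growth factor, had 12.75 and 28.41 FPKM (1.10). ZDHHC2, an enzyme that attaches palmitate to CD9 and CD151, had 0.71 and 3.05 FPKM (1.24). ZDHHC2 was kept through the FZR1 ko library alone.

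The 3 lower genes of the list were HBEGF, IFITM1 and ICAM1. HBEGF, the growth factor precursor that CD9 binds, had 57.10 FPKM (control) and 8.03 FPKM (FZR1 ko) (log2 ratio -2.69). CD9 itself was level. IFITM1, an interferon-induced protein that joins CD81, had 16.43 and 2.21 FPKM (-2.44), and as its sequence is close to that of other IFITM genes, its reads are uncertain. ICAM1, a leukocyte ligand, had 90.84 and 35.74 FPKM (-1.32). The median over the 23 kept was 0.19. The integrin subunits that bind laminin with CD151 and TSPAN8 were less different. ITGB4 had 11.79 and 22.10 FPKM (0.85), ITGA3 23.64 and 34.85 FPKM (0.54) and ITGA6 8.12 and 9.39 FPKM (0.19). ITGB1, the most abundant, had 121.24 and 101.33 FPKM (-0.26), and ITGA7 was under 1 FPKM. CLDN7, which joins EPCAM and TSPAN8, had 6.92 and 9.98 FPKM (0.47), and CD44 had 65.66 and 59.44 FPKM (-0.14). TIMP1, a secreted ligand of CD63, had the highest level of the 25, with 345.44 and 248.62 FPKM (-0.47).

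Of 25 genes of exosome formation and of endosomes 23 were kept, of which 17 had the higher FPKM in control and 6 in FZR1 ko. Over all genes kept 50.3% had the higher FPKM in control, and this difference was not tested. The median log2 ratio of the 23 was -0.17, against -0.0048 over all genes kept. At least 2-fold lower were 3, or 13.0% of the 23, beside 6.72% of all genes kept. At least 2-fold higher were 0, beside 6.78% of all genes kept, and neither difference was tested. SDCBP (syntenin-1), which binds CD63 and syndecans on the way into exosomes, had 167.78 FPKM (control) and 49.77 FPKM (FZR1 ko) (-1.73). SDC4, one of these syndecans, had 188.44 and 68.34 FPKM (-1.45), and VPS4A, the ATPase that disassembles the ESCRT machinery, had 87.10 and 42.12 FPKM (-1.03). ANXA2, the highest of the list, had 684.85 and 385.43 FPKM (-0.83). In the same libraries SDC1 had 49.56 and 47.69 FPKM (-0.05), and TSG101, an ESCRT subunit used as an exosome marker, had 39.85 and 37.77 FPKM (-0.08). Among the 6 with the higher FPKM in FZR1 ko were the exosome markers PDCD6IP (ALIX), with 23.61 and 31.81 FPKM (0.41), FLOT1, with 58.96 and 81.36 FPKM (0.46), and FLOT2, with 22.68 and 35.07 FPKM (0.61). Each of these 3 was less than 2-fold different. Exosomes themselves were not measured.

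**Figure D4:**
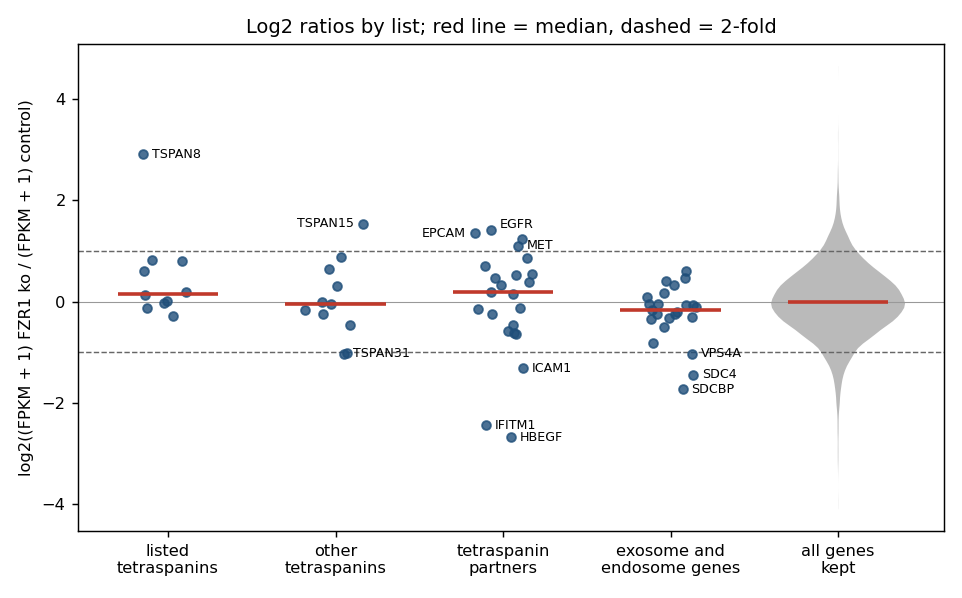
Each point is the log2 ratio of a gene kept, for the 10 listed tetraspanins, 11 others, 23 partners and 23 exosome and endosome genes, beside the distribution of all 13554 genes kept (grey shape). Red lines mark medians, at 0.16, -0.04, 0.19, -0.17 and -0.0048 from left to right, and dashed lines mark 2-fold.

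The genes whose levels in the libraries were most like those of TSPAN8 were found by the distance on the log2(FPKM + 1) scale, over 2 libraries, among protein-coding genes kept. TNS3, a focal adhesion protein, was nearest, with 1.49 FPKM (control) and 12 FPKM (FZR1 ko) (distance 0.38). It was followed by SLC12A3, a sodium chloride cotransporter (1.58 and 10.94 FPKM), and NOTCH3, a Notch receptor (1.77 and 12.11 FPKM). The next were BICC1, an RNA-binding protein (1.34 and 9.66 FPKM), and MFAP2, a microfibril protein (1.08 and 9.11 FPKM). As the measure uses the same ratio that chose TSPAN8, these are a description only.

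On chromosome 12, none of the 3 protein-coding neighbours of TSPAN8 on each side was at least 2-fold higher in FZR1 ko. On the side of lower coordinates lie PTPRR, PTPRB and KCNMB4. PTPRR, a tyrosine phosphatase 204 kb away, had 2.00 FPKM (control) and 2.28 FPKM (FZR1 ko) (log2 ratio 0.13), and the other two were under 1 FPKM. On the other side, 281 kb away, lies LGR5, a receptor of intestinal stem cells, at 0.19 FPKM in the control library and listed at 0 in the other. Beyond it ZFC3H1 had 19.89 and 16.71 FPKM (-0.24) and THAP2 had 6.27 and 2.09 FPKM (-1.23). Of these 6 genes 3 were kept, and THAP2 was at least 2-fold lower. Over all genes kept 6.78% were at least 2-fold higher and 6.72% lower, so counts over 3 genes say little.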

How the data were processed

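RNAseq was run on a BGISEQ-500 for 1 control and 1 FZR1 ko library. The authors mapped reads with Bowtie2, estimated expression with RSEM (build hg38) and deposited FPKM per Entrez gene ID, to 2 decimals. The submitters' processing notes name Trimmomatic 0.36, HISAT2 2.1.0 and Bowtie2 2.2.5, while the study's methods give another Bowtie2 version and UCSC as the source of the reference. The column named for a guide to FZR1 was taken as FZR1 ko and the one without a guide as control. The gene annotation, strand and filters are not given in the sources used here. Of 24663 rows 1630 had no value. Symbols came from the RefSeq table of GRCh38.p14 (22925 of 23033 matched).

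The log2 ratio used a pseudocount of 1 FPKM, and genes of at least 1 FPKM in at least 1 library were kept. Genes were counted from a 2-fold difference on this scale. No test was possible without replicates. The counting was run on simulated data with 4-fold changes, planted in genes that were not low, and little noise. That checks the code only and says nothing of the calls in these libraries. The members and lists were chosen with earlier results of these data known.

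Named were the 10 genes, and of the other lists those 2-fold different at 10 FPKM or more, the highest, and those a statement turns on. Also named were the 5 nearest genes by profile and the 3 protein-coding neighbours on each side, the genes next to TSPAN8 in the order of log2 ratios, and FZR1. TSPAN15, CD37 and ZDHHC2 lie under 10 FPKM and were named after their values were seen. Gene models were those of GENCODE 44. Python 3.11.15, numpy 2.4.6, pandas 2.3.3 and matplotlib 3.10.9 were used.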

Additional observations from a re-analysis of the deposited data

How the results depend on the processing

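No paired analysis was possible because there was a single control and a single FZR1 ko library, and for the same reason no replicate could be left out. Of 147 values under the alternatives, 138 stayed within 1.5 times and on their side of the threshold. This count says little, since a filter cannot change the ratio of a single gene. A change of 1.5 times is also wider than most of the ratios and medians here. TSPAN8 is counted as unchanged even under the filter that removes it. Of the ratios and medians only that of TSPAN8 was 2-fold different at first, so only its sign was followed, and it did not change. The log2 ratio of TSPAN8 was 3.69 with a pseudocount of 0.1 FPKM and 1.66 with one of 5 FPKM, in place of 2.91. With at least 1 FPKM in both libraries TSPAN8 (0.99 FPKM in control) drops out, so 0 of the listed genes were 2-fold different. Of the family, 4 genes at first, 1 was left with a pseudocount of 5 FPKM, 2 with at least 1 FPKM in both libraries and 1 at a 4-fold threshold. Of all genes, 1830 at first, 2818 passed with a pseudocount of 0.1 FPKM, 453 with one of 5 FPKM and 150 at 4-fold. Higher thresholds and pseudocounts lower the counts by construction. TSPAN31 lost its 2-fold difference when scaled to the same upper quartile. The median of the listed genes ran from 0.13 to 0.21, of the partners from 0.14 to 0.24 and of the exosome genes from -0.17 to -0.11. That of the other tetraspanins ran from -0.05 to 0.0052. The depth, which the file does not hold, limits the low values most.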

Other observations

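The L6 family (TM4SF genes) encodes membrane proteins that also cross the membrane 4 times but are not tetraspanins. TM4SF1, a surface antigen of carcinomas, had 305.81 FPKM (control) and 334.47 FPKM (FZR1 ko) (log2 ratio 0.13), a level between those of CD151 and CD63. TM4SF19 had 9.39 and 5.28 FPKM (-0.73). The other 4 of the 6 genes were under 1 FPKM in both libraries, and 0 of the 2 kept were at least 2-fold different, beside 13.5% of all genes kept.

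Of 10 leukocyte markers 5 were kept, and 1 of them, the tetraspanin CD37, was at least 2-fold different, beside 13.5% of all genes kept. CD37 was kept through the control library alone, so the count says little. CD53, another leukocyte tetraspanin, had 0.08 FPKM (control) and 0.21 FPKM (FZR1 ko). PTPRC, the common leukocyte antigen, had 0.08 and 0.09 FPKM. Most of their summed level was CD68, a lysosomal protein that other cells also make, with 46.09 and 63.76 FPKM (0.46). LYZ had 5.97 and 3.34 FPKM. Of 14 mesenchymal and basal markers 10 were kept, with a median log2 ratio of 0.21. Of the 10, 5 had the higher FPKM in each library, and 2 were at least 2-fold higher in FZR1 ko, beside 6.78% of all genes kept. CDH2 (N-cadherin) had 2.97 and 15.31 FPKM (2.04) and AXL, a receptor kinase, 16.02 and 37.84 FPKM (1.19), while VIM (vimentin) had 314.55 and 294.79 FPKM (-0.09). KRT17, a basal keratin, had 102.78 and 55.81 FPKM (-0.87), and SNAI2, a transcription factor of mesenchymal cells, 7.05 and 3.86 FPKM (-0.73).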
